A study of Mus musculus with 29 samples.

Results

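Spleens of mice at the terminal stage of a myeloproliferative disease driven by MLL-ENL-ERtm were set against spleens of wild-type mice. The members were chosen by their labels, as the arrays titled terminal-stage MLL-ENL-ERtm spleen (3 arrays) and wild-type spleen (5 arrays), which together are 8 of the 29 arrays of the series. Total RNA of primary spleen cells was hybridised to an Affymetrix mouse array of 22690 probe sets. The terminal mice had received tamoxifen in the chow at 300 mg/kg for 21, 23 and 19 months (replicates 1, 2 and 3). The wild-type mice lacked the fusion and received the same chow for 24, 8, 9, 11 and 11 months (replicates 1 to 5), so that, although the labels call these controls age- and time-matched, wild type 1 alone had a tamoxifen time like that of the terminal mice. The other spleen groups, used here where a gene is followed over the disease, were early (3 arrays, 7 months) and progression (3 arrays, 9 or 10 months) MLL-ENL-ERtm mice. The labels describe the terminal spleens as proliferating, with low or absent DNA damage response and no senescence, and call the samples of a group biological replicates. The sources used here give no strain, sex or age, and no promoter or cell type that drives the fusion.

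MLL-ENL joins the front part of the histone methyltransferase MLL (gene Kmt2a) to ENL (gene Mllt1), a component of complexes that promote transcript elongation. Fusions of this kind hold the Hoxa genes and their partner Meis1 active in blood progenitors, which keep dividing as immature myeloid cells. The ERtm part is a mutated hormone-binding domain of the oestrogen receptor, which ties the activity of the fusion to tamoxifen. The mouse spleen is normally rich in B and T lymphocytes, clears old red cells through its macrophages and makes red cells and granulocytes when demand is high. In these bulk samples, fewer cells of a type and less RNA per cell cannot be told apart.

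The values are log2 levels, in which a difference of 1 is a doubling of signal, and differences are terminal minus wild type ± the standard error of the limma fit. A gene was called higher or lower where its limma p-value, adjusted by the method of Benjamini and Hochberg over all 12394 genes, was under 0.05. Of these genes 2247 (18.1%) were higher and 2023 (16.3%) were lower in terminal spleens, 4270 in all (34.5%). At least 2-fold changes were called for 665 genes upward (5.37%) and 860 downward (6.94%). All 3 terminal arrays lay above all 5 wild-type arrays for 2648 genes (21.4%) and below them for 2258 (18.2%). The median difference over all genes was 0.04, against which the medians of gene lists are read. Where a list is said to have none higher or none lower than wild type, the count in that direction was also 0 at an unadjusted limma p under 0.05, except 1 lower myeloid transcription factor and 2 higher megakaryocyte genes. No fold is given where the lower group lay within 1 log2 unit of the arrays' mean lower quartile of 4.62, since the signal there may be background, and the log2 differences of such genes are differences from that level.

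The arrays were alike in overall signal, with medians of 6.81 to 6.86 in terminal and 6.84 to 6.90 in wild-type spleens. Xist, which is expressed from the inactive X chromosome of female cells, was at 11.58 to 12.15 in the 3 terminal spleens, against 12.69 and 12.80 in wild types 1 and 5 and 4.99 to 5.28 in the other 3 wild-type spleens. It was at 5.39 to 5.72 in the 3 progression spleens, and at 12.59, 5.73 and 4.97 in early 1, 2 and 3. Every comparison of terminal with progression spleens below is therefore also one of high with low Xist. Pancreas acinar genes, 19 measured, had a mean level of 5.03 to 5.08 in terminal spleens, and in wild-type spleens 10.96 in wild type 3, 6.76 in wild type 5 and 4.98 to 5.23 in the other 3. Markers of the labelled tissue were present in wild type, with B cell, T cell and splenic macrophage lists at mean levels of 8.69 or more, while the spleen determinants Tlx1 and Nkx2-5 were at 4.36 to 5.08 and 6.16 to 6.28, near or little above the lower quartile. The number of arrays limits the precision of every value below.

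**Figure D1:**
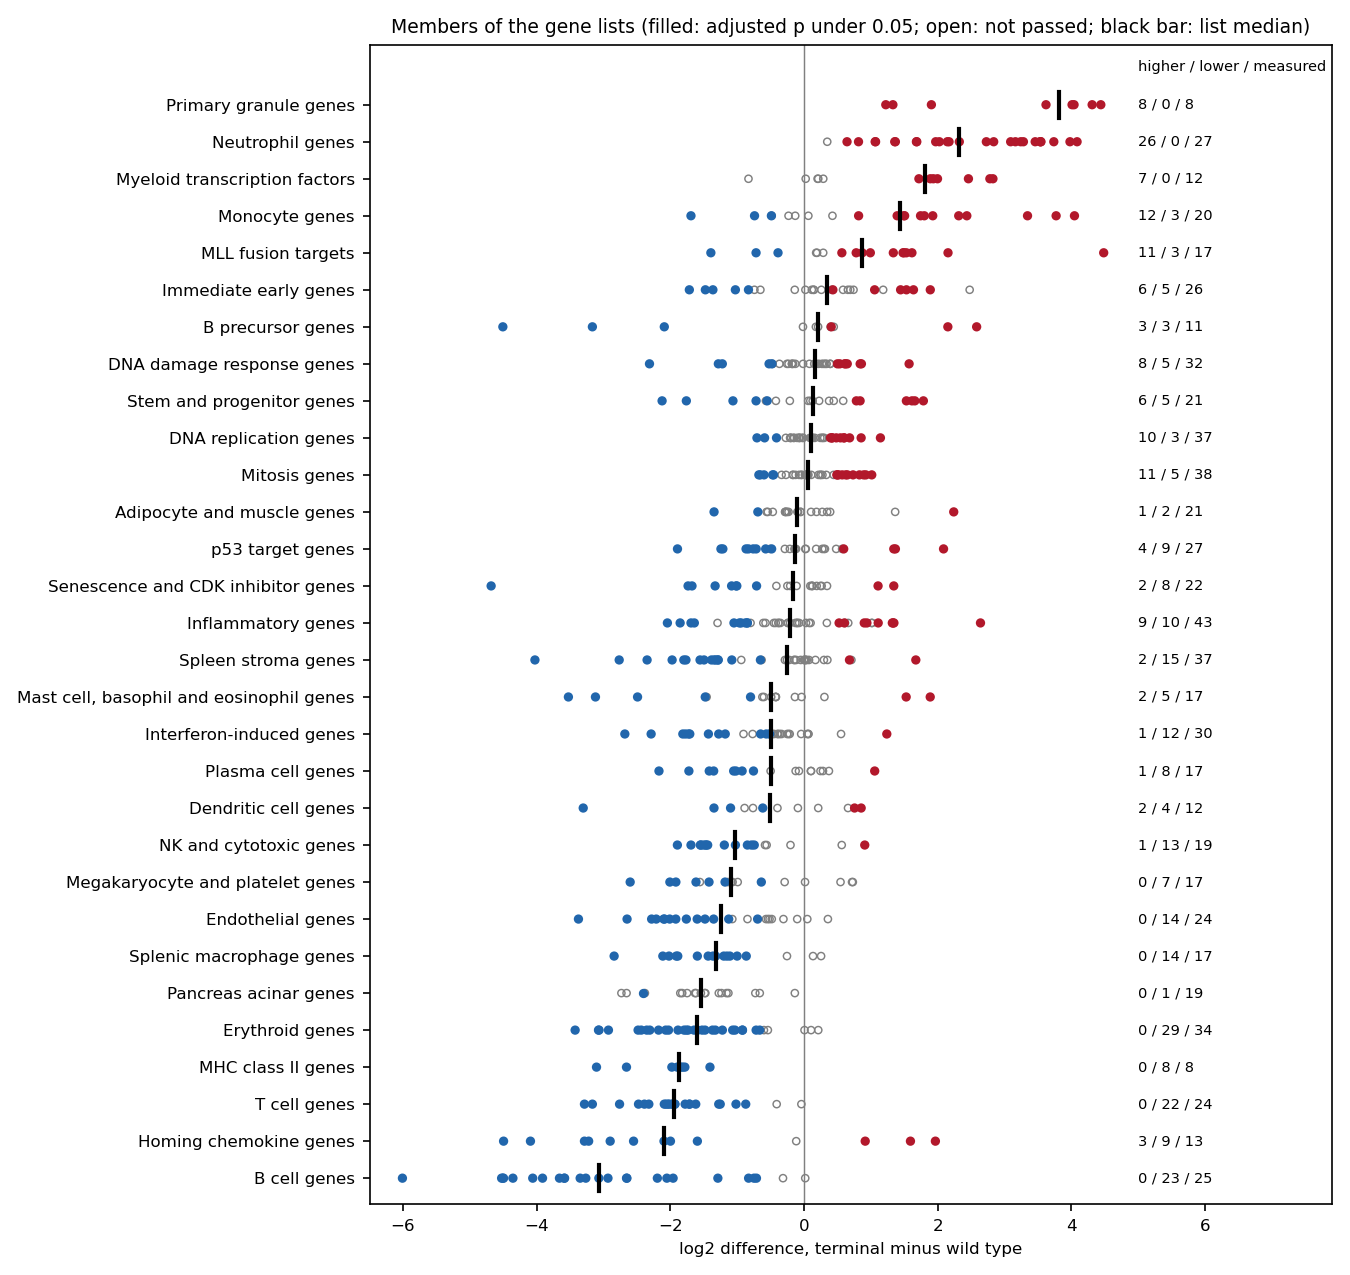
Log2 difference of each measured gene in 30 lists, terminal minus wild type, with a black bar at the list median and the number of members called higher, called lower and measured at the right (filled points passed an adjusted p of 0.05, open points did not). Primary granule genes have the highest median, 3.82, and B cell genes the lowest, -3.07.

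The fusion's own components were examined first. Esr1, the oestrogen receptor gene, had log2 levels of 7.22, 7.38 and 7.42 in terminal spleens, against 4.70, 5.14, 5.09, 5.48 and 5.42 in wild-type spleens. The groups did not overlap, and the difference was 2.17 ± 0.20 (limma adjusted p = 3.0e-06). The sources used here do not say which part of the gene the probe set covers, or whether it detects ERtm. Mllt1 was 1.5-fold higher (0.59 ± 0.13, limma adjusted p = 0.0035), and Kmt2a was 1.87-fold lower (-0.91 ± 0.21, limma adjusted p = 0.0041). The species of the fused parts is not stated in the labels, so what share of it the Kmt2a and Mllt1 probe sets detect is not known.

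Known targets of MLL fusions rose in the terminal spleen, led by the Hoxa genes, which specify position in the embryo and self-renewal in blood progenitors. Of 17 measured targets 11 were higher, 3 were lower and 3 did not pass, with a median of 0.87, where 18.1% of all genes were higher and 16.3% lower. Against the same wild-type arrays 12 of the 17 were higher in progression spleens (median 1.12) and 9 in early spleens (median 0.83). By limma 0 were higher in terminal than in progression or early spleens, and 1 was lower in each case (3.3% and 3.88% of all genes were). Hoxa9, the leading target, had 8.89, 11.20 and 9.78 in terminal spleens, against 5.47, 5.77, 5.35, 4.73 and 6.02 in wild-type spleens (4.48 ± 0.41, limma adjusted p = 2.8e-06). The wild-type values lie near the lower quartile. In progression spleens Hoxa9 was at 10.52, 11.04 and 10.71, and in early spleens at 10.46, 9.74 and 10.63. Hoxa10 had 5.12, 7.51 and 5.82 in terminal spleens, against a mean of 4.00 ± 0.10 (SD, n = 5) in wild type (2.16 ± 0.41). Terminal 2 was the highest of the 3 terminal spleens for both. Meis1, the cofactor that binds DNA beside Hoxa9, had 6.42, 6.89 and 6.82 in terminal spleens, against 4.87 to 5.57 in wild type (1.53 ± 0.16). Hoxa7 rose by 1.34 ± 0.23, and Myb, a transcription factor of proliferating progenitors, by 1.49 ± 0.18. The 3 targets that fell were Mef2c (-1.39 ± 0.20), Lmo2 (-0.72 ± 0.10) and Jmjd1c (-0.39 ± 0.13). Mef2c is also expressed in B cells, and Lmo2 in red cell precursors.

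**Figure D2:**
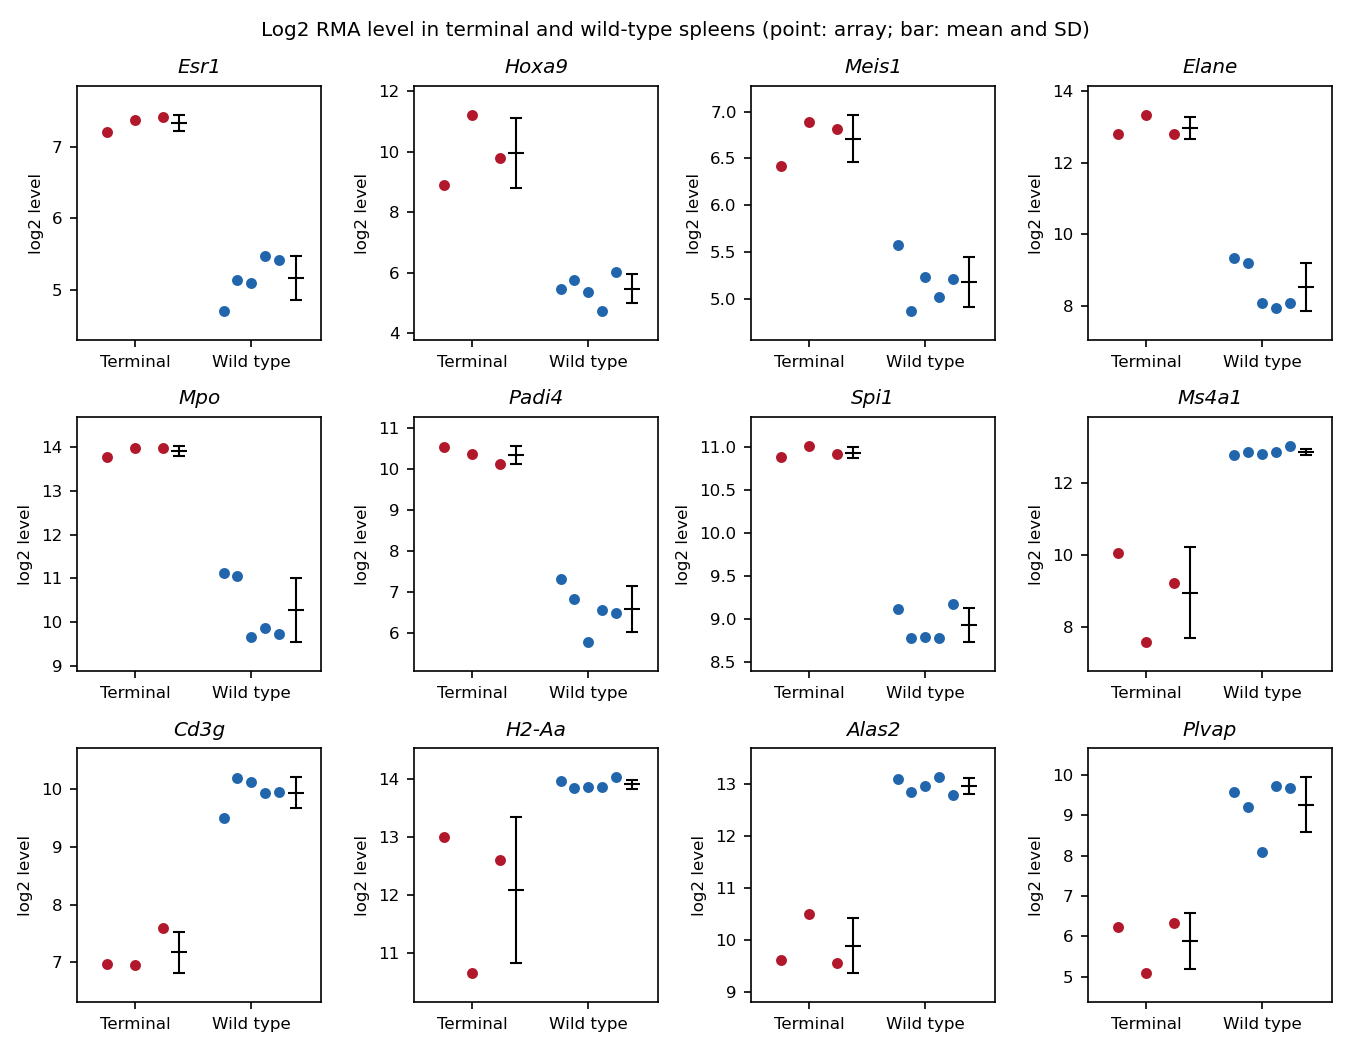
Log2 level of 12 genes on each of the 3 terminal and 5 wild-type arrays, with the group mean and SD as a bar beside the points. The groups do not overlap for any of the 12, and the 3 terminal arrays of Ms4a1 run from 7.58 to 10.07, a wider spread than in wild type.

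Genes of primary granules, the first granules that a promyelocyte fills with enzymes, had the highest median of the 30 lists of cell types and functions. All 8 measured members were higher, with that median at 3.82, and the mean level of the list was 11.71, 12.06 and 11.74 in terminal spleens, against 8.33 to 9.22 in wild type. Against the same wild-type arrays 8 were already higher in progression spleens (median 3.45) and 6 in early spleens (median 3.43). By limma 0 of the 8 were higher in terminal than in progression spleens and 1 than in early spleens (2.56% and 2.73% of all genes were). At an unadjusted limma p under 0.05 these counts were 2 and 3. Elane, neutrophil elastase, had 12.80, 13.32 and 12.80 in terminal spleens, against 9.33, 9.20, 8.09, 7.94 and 8.10 in wild-type spleens. The groups did not overlap, and their means lay 21.7-fold apart (4.44 ± 0.40, limma adjusted p = 2.2e-06). Prtn3, proteinase 3, encoded close to Elane, had 13.19, 13.68 and 13.57 in terminal spleens, against 10.54, 9.93, 8.72, 9.06 and 8.94 in wild-type spleens (16.5-fold, 4.04 ± 0.36). Ctsg, cathepsin G, was 16.1-fold higher (4.01 ± 0.42). Mpo, myeloperoxidase, was 12.3-fold higher (3.62 ± 0.34), and Ms4a3, a marker of granulocyte-monocyte progenitors, 19.9-fold (4.31 ± 0.48). Wild types 1 and 2 were the highest wild-type spleens for Elane, Prtn3, Mpo, Ctsg and Ms4a3.

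The promoters of Elane and Prtn3 are shown because both genes rose past 16-fold and both carry the core of the motif bound by PU.1, the product of Spi1. The RefSeq promoters run from 250 bases before to 50 after the start, in the build GRCm38.p6. Elane lies at chr10:79886062-79886361 and Prtn3 at chr10:79879417-79879716, both on the plus strand. Capitals mark GAGGAA, searched on both strands.
Elane: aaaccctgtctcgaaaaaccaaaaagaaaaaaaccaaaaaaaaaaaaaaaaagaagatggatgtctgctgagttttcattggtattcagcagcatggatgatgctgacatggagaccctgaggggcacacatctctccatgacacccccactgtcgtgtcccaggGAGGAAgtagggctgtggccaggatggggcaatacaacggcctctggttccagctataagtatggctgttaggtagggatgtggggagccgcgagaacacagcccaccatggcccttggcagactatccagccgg
Prtn3: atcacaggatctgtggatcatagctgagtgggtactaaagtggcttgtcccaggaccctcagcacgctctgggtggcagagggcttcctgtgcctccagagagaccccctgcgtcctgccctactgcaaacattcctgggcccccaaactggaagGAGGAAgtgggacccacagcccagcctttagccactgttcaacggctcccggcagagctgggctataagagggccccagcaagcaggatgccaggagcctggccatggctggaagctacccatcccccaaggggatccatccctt
GAGGAA was present in 5 of the 7 primary granule genes with a promoter in the table (Prtn3, Elane, Mpo, Ctsg and Ms4a3) and in 28.3% of all 27025 promoters of the table. The looser C/EBP pattern TTNNGNAA was present in 3 of the 7 and in 40.7% of all promoters. These matches describe letters only.

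Neutrophil genes of later stages rose as well, 26 of 27 measured, with none lower and a median of 2.32. Their mean level was 12.18, 12.42 and 11.87 in terminal spleens, against 9.33 to 10.14 in wild type. Itgb2l, an integrin of neutrophils, was 15.8-fold higher (3.98 ± 0.40), and Ceacam10 was 17.0-fold higher (4.09 ± 0.45). Padi4, which citrullinates histones when neutrophils cast chromatin nets, had 10.53, 10.35 and 10.10 in terminal spleens, against 5.77 to 7.31 in wild type (13.3-fold). Pglyrp1, a peptidoglycan-binding protein of specific granules, was 11.6-fold higher (3.54 ± 0.34), and also 1.64 higher than in progression spleens. By limma 2 of the 27 genes were higher than in progression and 1 than in early spleens (2.56% and 2.73% of all genes were). At an unadjusted limma p under 0.05 these counts were 15 and 10. Against wild type 23 of the 27 were already higher in progression spleens and 22 in early spleens (9.29% and 7.35% of all genes were). S100a8 and S100a9 rose by 0.64 ± 0.13 and 0.82 ± 0.11, at 14.68 to 14.93 in terminal spleens and 13.70 to 14.27 in wild type. Whether the array signal saturates at such levels was not tested. Further genes of the 15 with the largest rise were Nrg4 (4.19 ± 0.48), Lin28a, a stem cell RNA-binding protein that blocks let-7 maturation (3.91 ± 0.48), Lbp, the lipopolysaccharide-binding protein (3.87 ± 0.32), Adgrg3 (3.87 ± 0.35), Gpr84, a fatty acid receptor (3.85 ± 0.39), Fbp1, an enzyme of gluconeogenesis (3.84 ± 0.47) and Dmkn (3.80 ± 0.44). Over the mean of its probe sets Lin28a differed by 2.12.

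The transcription factors that set the myeloid fate rose in part, 7 of 12 measured, with none lower and a median of 1.80. Spi1, which encodes PU.1, had 10.88, 11.00 and 10.92 in terminal spleens, against 9.12, 8.79, 8.80, 8.78 and 9.18 in wild-type spleens. The narrow groups lay 3.99-fold apart (2.00 ± 0.18, limma adjusted p = 3.0e-06). Spi1 was also higher than in progression (1.03) and early spleens (0.91), both called. Cebpa rose by 1.72 ± 0.16, Cebpd by 2.78 ± 0.26, Klf5 by 2.46 ± 0.24 and Cebpb by 1.94 ± 0.31. Over the mean of its probe sets Cebpd differed by 1.73. Irf8, the factor of monocytes and dendritic cells, was at 11.06, 9.13 and 10.79 in terminal spleens, against 11.04 to 11.44 in wild type (-0.83 ± 0.32, limma adjusted p = 0.063).

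Monocyte genes moved both ways, with 12 of 20 measured higher, 3 lower and a median of 1.44. F13a1, the coagulation factor XIII subunit of monocytes, had 12.79, 13.27 and 12.90 in terminal spleens, against 8.88 to 9.63 in wild type (13.7-fold, limma adjusted p = 8.1e-08). Fn1, fibronectin, was 10.2-fold higher and Ccr2, the receptor that guides monocytes out of the marrow, 5.41-fold higher. Vcan, a matrix proteoglycan of classical monocytes, rose by 4.05 ± 0.71 and was lowest in terminal 1, at 7.40, against 9.16 and 8.68 in the others. The 3 that fell were Clec4n (-1.69), Ly86 (-0.74) and Ctss (-0.49).

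Macrophages resident in the spleen went the other way, with 14 of 17 measured genes lower, none higher and a median of -1.32. Hmox1, which opens the haem ring of eaten red cells, had 9.72, 9.68 and 9.80 in terminal spleens, against 11.66, 11.15, 12.10, 11.74 and 11.57 in wild-type spleens (3.76-fold lower). Slc40a1, the iron exporter ferroportin, had 8.69, 10.52 and 10.68 in terminal spleens, against 11.70 to 12.35 in wild type (4.32-fold lower), with terminal 1 lowest. Spic, the factor of red pulp macrophages, fell by 2.02 ± 0.46, and Vcam1 by 1.36 ± 0.24. Marco, the scavenger receptor of the marginal zone, was 7.16-fold lower. Siglec1, Cd163 and Slc11a1 did not pass, at differences of 0.14, 0.26 and -0.25. Terminal spleens had 0 of the 17 lower than progression and 0 lower than early spleens by limma (3.3% and 3.88% of all genes were), and 1 was higher in each case (2.56% and 2.73%). At an unadjusted limma p under 0.05 the lower counts were 0 and 1 and the higher counts 1 and 4.

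MHC class II genes, which present peptides to T cells, fell without exception among the 8 measured (median -1.87). The mean level of the list was 10.70, 8.68 and 10.42 in terminal spleens, against 11.85 to 12.10 in wild type. Cd74, the invariant chain, had 12.57, 10.27 and 12.38 in terminal spleens, against 13.44 to 13.64 in wild type (3.58-fold lower). Terminal 2 was the lowest of the terminal spleens for every MHC class II gene named here. H2-DMb2, which loads peptides in B cells and dendritic cells, fell by 3.10 ± 0.31, and H2-Oa by 2.66 ± 0.29. Without terminal 2 all 8 were still lower, but the list median was -1.10 and the Cd74 difference -1.11, against -1.84 with it. With the Xist-high arrays alone 5 of the 8 were lower (median -1.94), and with wild type 1 alone 3 (median -2.01). Dendritic cell genes were mixed (2 higher, 4 lower, 6 not passed), where 18.1% of all genes were higher and 16.3% lower. Cd83, also expressed by activated B cells, was 9.87-fold lower.

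B cell genes had the lowest median of the 30 lists, with 23 of 25 measured lower, none higher, at -3.07. The mean level was 8.03, 6.90 and 7.80 in terminal spleens, against 10.29 to 10.55 in wild type. Cr2, complement receptor 2 of marginal zone and follicular B cells, had 5.85, 4.37 and 5.19 in terminal spleens, against 11.09, 11.02, 11.09, 11.19 and 11.33 in wild-type spleens. The groups did not overlap, the terminal values lie near the lower quartile, and the difference was -6.01 ± 0.52 (limma adjusted p = 1.9e-06). Ms4a1, which encodes CD20, had 10.07, 7.58 and 9.22 in terminal spleens, against 12.79 to 13.03 in wild type (15-fold lower). Terminal 2 was again the lowest of its group. Fcer2a, which encodes CD23, fell by 4.52 ± 0.37.

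Several of the transcription factors that hold B cell identity were lower. Ebf1 fell by 4.51 ± 0.44 and Bach2 by 4.06 ± 0.47. Spib was 20.5-fold lower, at 8.10, 5.20 and 7.78 in terminal spleens, against 11.13 to 11.65 in wild type. Its log2 difference ran from -4.89 to -3.44 over the alternatives. Pax5, near the arrays' lower quartile in both groups, differed by -0.75 ± 0.12. Ly6d was 14.4-fold lower and Dtx1, a target of Notch in marginal zone B cells, 14.1-fold. Ighm, the constant part of IgM, did not pass, at 14.25, 14.56 and 14.73 in terminal spleens and 14.58 to 14.93 in wild type (-0.31 ± 0.26, limma adjusted p = 0.39). Saturation of the array signal at these levels was not tested. Among plasma cell genes 8 of 17 were lower and 1 higher; Jchain, which joins IgM and IgA chains, fell by 1.72 ± 0.23, and Xbp1 differed by 0.37 ± 0.14, not passed.

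**Figure D3:**
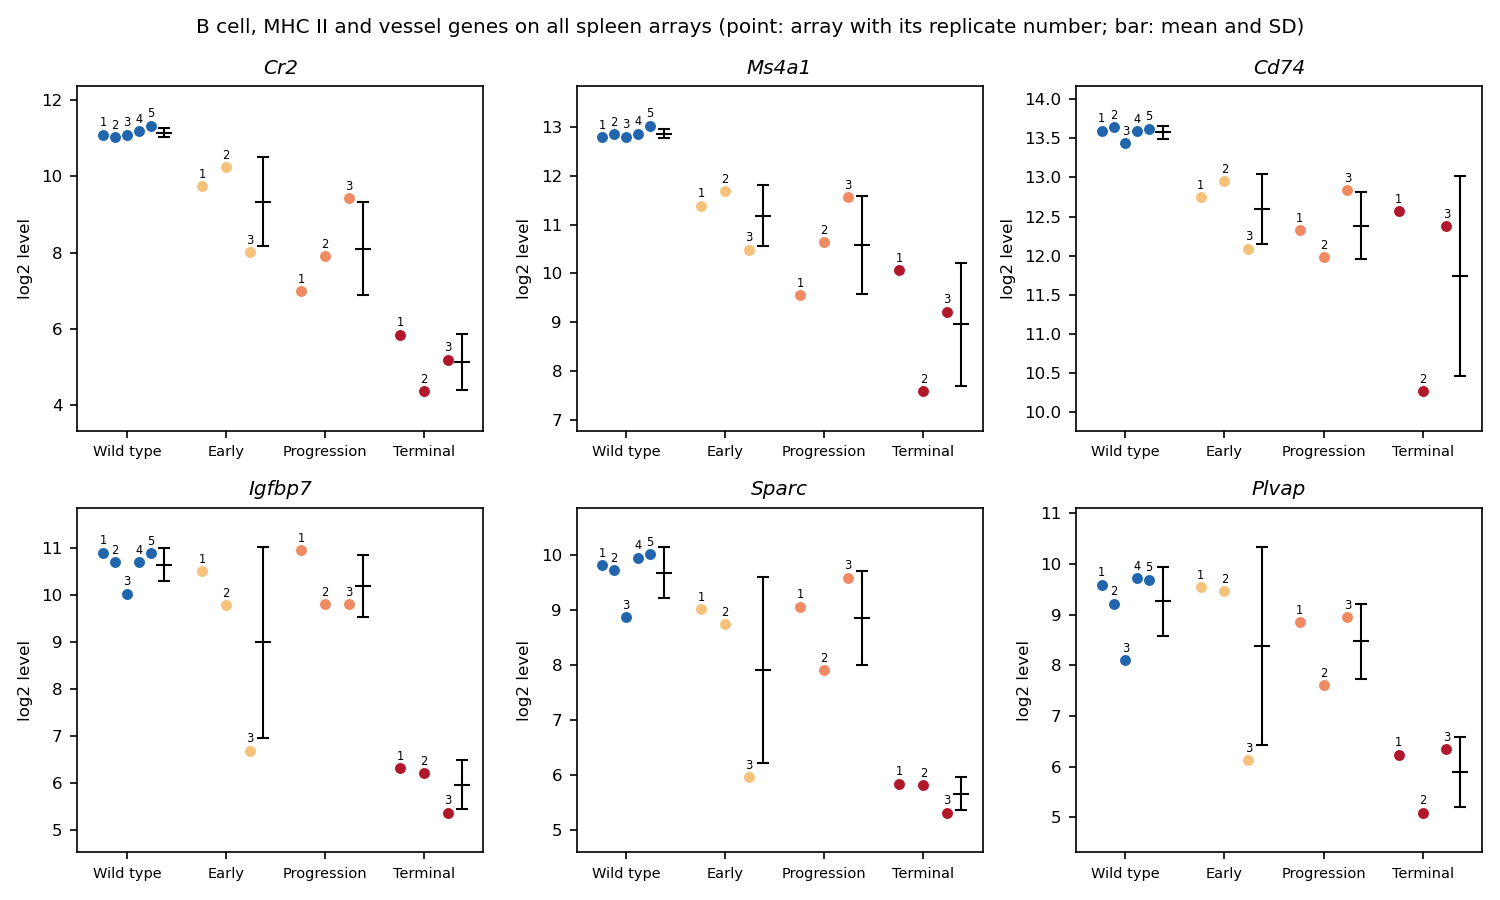
Log2 level of Cr2, Ms4a1, Cd74, Igfbp7, Sparc and Plvap on all 14 spleen arrays by stage, wild type to terminal, each point marked with its replicate number and each group with a bar for mean and SD. Cr2 is at 11.02 to 11.33 in wild type and at 4.37 to 5.85 in terminal spleens, with the early and progression arrays between, and early 3 stands near the terminal arrays for Igfbp7, Sparc and Plvap.

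Against the same wild-type arrays, 21 of 25 B cell genes were lower in early spleens (8.55% of all genes were) and 23 in progression spleens (9.96%). Terminal spleens had 3 of 25 lower than progression (3.3% of all genes were lower and 5.86% changed) and 7 lower and 1 higher than early spleens (3.88% lower, 2.73% higher, 6.61% changed). At an unadjusted limma p under 0.05 the lower counts were 9 and 18. Against progression the lower count was 0 with the replicate block, with months of tamoxifen as a covariate or with only the groups compared, and ranged from 1 without terminal 2 or any 1 progression array to 6 without terminal 1. Against early it was 0 with months, 1 with only the groups compared, 3 without terminal 2 or early 1, 2 without early 2, 13 without early 3 and 18 with array weights. Cr2 was at 6.99, 7.91 and 9.42 in progression spleens and 9.74, 10.25 and 8.01 in early spleens. The terminal differences from progression and early were -2.97 and -4.20, both called.

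T cell genes were lower in 22 of 24 measured cases, with none higher and a median of -1.95. Against the same wild-type arrays 22 were also lower in progression spleens (median -1.69) and 22 in early spleens (median -1.49). By limma 0 of the 24 were lower in terminal than in progression spleens and 2 than in early spleens (3.3% and 3.88% of all genes were). At an unadjusted limma p under 0.05 these counts were 4 and 6. Il7r, the receptor for the survival cytokine interleukin-7, had 7.68, 8.42 and 8.01 in terminal spleens, against 11.00, 11.40, 11.16, 11.37 and 11.07 in wild-type spleens (8.97-fold lower, limma adjusted p = 3.7e-07). Cd3g, a chain of the T cell receptor complex, was 6.77-fold lower, and Cd8b1 was 5.00-fold lower. Ccr7, which leads naive T cells into lymphoid tissue, was 9.74-fold lower. Zap70 and Ctla4 did not pass. NK and cytotoxic genes were lower in 13 of 19 cases and higher in 1, with Klrd1 at -1.89 ± 0.29 and Ccl5 at -1.69 ± 0.31. The lower count was 8 without terminal 2 or without terminal 3, 6 under the replicate block or with the Xist-high arrays alone, 7 with months as a covariate and 2 with wild type 1 alone.

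Genes that organise lymphoid tissue were mostly lower. Of 13 homing genes 9 were lower and 3 higher, with a median of -2.09. Cxcr5 and Ccr6, chemokine receptors of B cells, fell by 4.49 ± 0.52 and 4.09 ± 0.36. Lta, lymphotoxin alpha, fell by 2.55 ± 0.24, and its ligand partner Ltb by 2.09 ± 0.34. Cxcl13, which attracts B cells into follicles, was at 6.05, 7.35 and 5.68 in terminal spleens, against 9.5 in wild type 1 and 7.52 to 8.29 in the other wild-type spleens. The receptor Ltbr rose by 1.59 ± 0.18 and Cxcr4 by 0.92 ± 0.21. Tnfsf13b, the survival factor BAFF, was 3.91-fold higher.

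Red cell genes fell in terminal spleens against wild type and against both earlier stages. Of 34 measured genes 29 were lower than in wild type, none was higher, and the median was -1.60. The list's mean level was 9.58, 9.19 and 9.72 in terminal spleens, against 11.08, 11.11, 11.15, 11.11 and 10.88 in wild-type spleens. In progression and early spleens it was 11.16, 10.81 and 11.07, and 11.24, 11.38 and 11.01, a range that contains all 5 wild-type values. Against progression 25 of 34 were lower (median -1.53, with 3.3% of all genes lower), and against early 28 (median -1.71, with 3.88% lower). Progression and early spleens differed from wild type by list medians of -0.03 and 0.16. None of the 34 was lower in either by limma (3 and 0 at an unadjusted p under 0.05), and 1 was higher in progression (9.29% of all genes were) and 2 in early spleens (7.35%). These comparisons share the terminal arrays.

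Several enzymes of haem synthesis were lower. Alas2, the first and rate-limiting enzyme of the red cell pathway, had 9.61, 10.49 and 9.56 in terminal spleens, against 13.08, 12.84, 12.95, 13.12 and 12.78 in wild-type spleens. It stood at 12.56 to 13.04 in progression and 12.92 to 13.21 in early spleens. The terminal arrays stood apart from the 11 others, 8.38-fold below wild type (-3.07 ± 0.19, limma adjusted p = 1.8e-07). Fech, which inserts iron into the ring, had 10.90, 11.34 and 11.07 in terminal spleens, against 13.13 to 13.46 in wild type (4.52-fold lower). Urod was 3.69-fold lower, and Slc25a37, the mitochondrial iron importer mitoferrin, 5.11-fold lower. Cpox did not pass (-0.60 ± 0.31).

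Membrane and regulatory genes of red cells were lower as well. Epb42, a protein of the red cell skeleton, had 7.11, 6.80 and 7.02 in terminal spleens, against 9.81, 10.69, 10.64, 10.45 and 10.41 in wild-type spleens (10.7-fold lower, limma adjusted p = 9.0e-08). Trim10, needed for terminal red cell maturation, had 9.44, 9.04 and 9.07 in terminal spleens, against 12.03 to 12.51 in wild type (8.42-fold lower, limma adjusted p = 1.9e-08). Both were lower than in progression by 2.91 and 2.80. The regulators Klf1 and Gata1 fell by 1.52 ± 0.31 and 1.03 ± 0.30, and Epor, the erythropoietin receptor, by 1.07 ± 0.22. Nfe2, Car1, Xk and Hba-a1 did not pass. The adult globin probe sets carry several gene symbols and were left out of the count, and Hba-a1 was measured on a dim probe set.

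The Alas2 and Epb42 promoters are shown because both genes fell past 8-fold and both carry GATAA, the core letters bound by GATA1. Alas2 lies at chrX:150547167-150547466 on the plus strand and Epb42 at chr2:121036828-121037127 on the minus strand (GRCm38.p6, from RefSeq). Capitals mark GATAA, seen as TTATC when it is on the opposite strand, and CCNCNCCC, the pattern of KLF factors, or its reverse. The 2 motifs do not overlap, while KLF matches may run into each other.
Alas2: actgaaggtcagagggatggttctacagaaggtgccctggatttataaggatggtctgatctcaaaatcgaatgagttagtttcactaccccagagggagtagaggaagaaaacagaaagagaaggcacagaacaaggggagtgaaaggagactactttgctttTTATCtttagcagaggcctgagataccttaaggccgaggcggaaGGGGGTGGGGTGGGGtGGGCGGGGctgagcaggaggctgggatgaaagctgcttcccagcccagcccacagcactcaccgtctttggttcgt
Epb42: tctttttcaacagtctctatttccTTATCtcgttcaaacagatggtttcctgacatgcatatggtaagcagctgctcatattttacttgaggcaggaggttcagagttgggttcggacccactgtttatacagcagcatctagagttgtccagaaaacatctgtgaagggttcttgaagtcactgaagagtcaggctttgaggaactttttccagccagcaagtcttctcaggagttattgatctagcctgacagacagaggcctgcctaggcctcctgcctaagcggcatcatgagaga
GATAA was present in 14 of the 27 erythroid genes with a promoter in the table and in 25.8% of all promoters. CCNCNCCC was present in 19 of the 27 and in 49.1% of all promoters. No binding was measured in this study.

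**Figure D4:**
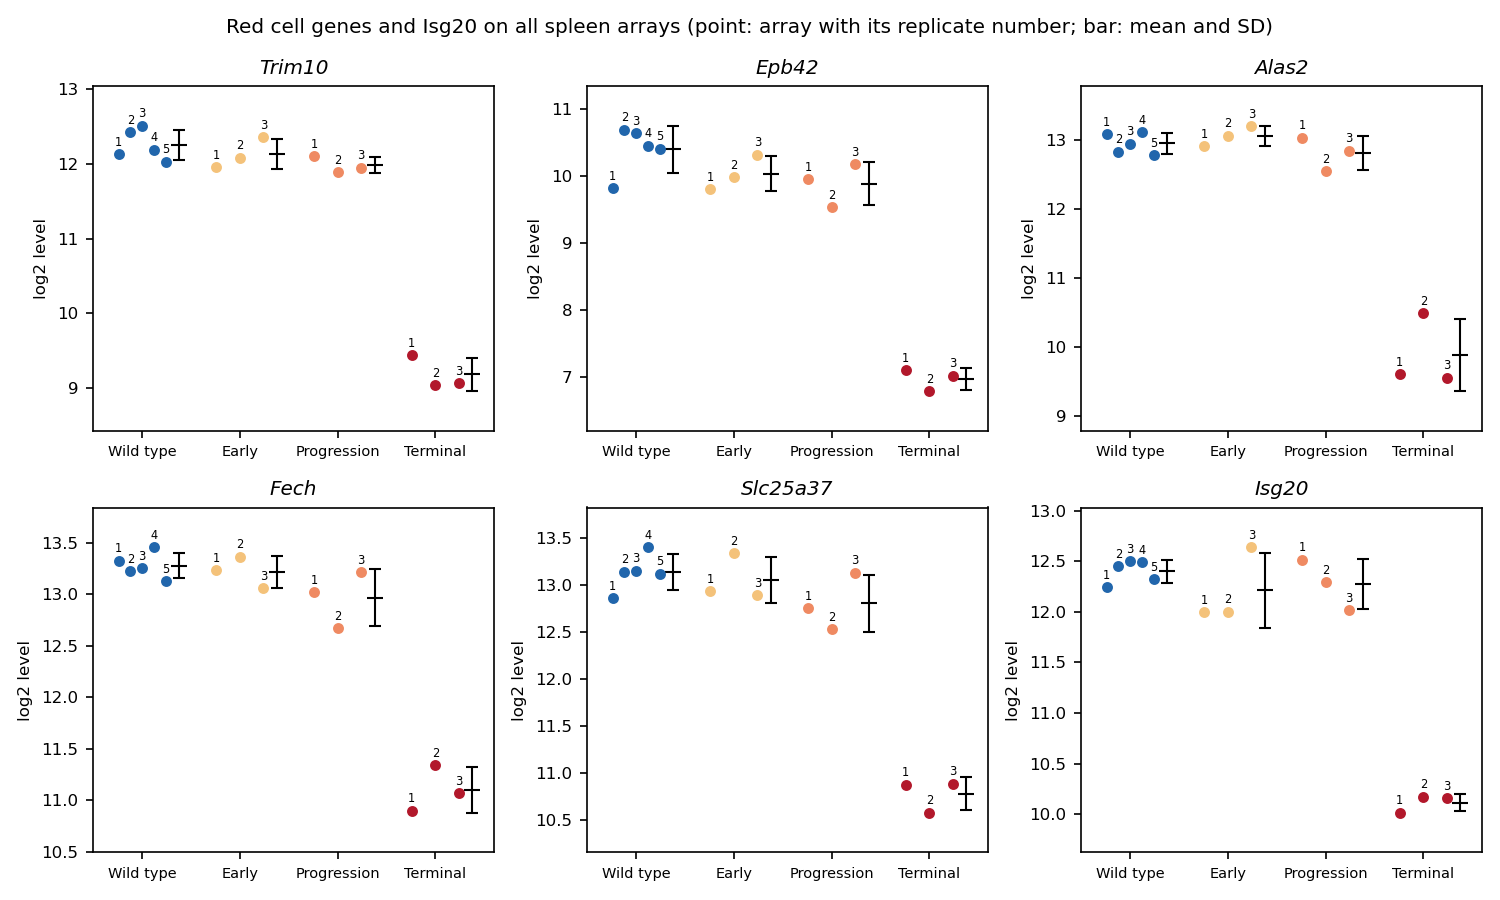
Log2 level of Trim10, Epb42, Alas2, Fech, Slc25a37 and Isg20 on all 14 spleen arrays by stage, wild type to terminal, each point marked with its replicate number and each group with a bar for mean and SD. For Alas2 the 3 terminal arrays, 9.56 to 10.49, lie below all 11 other arrays, whose lowest is 12.56.

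Megakaryocyte and platelet genes were lower in 7 of 17 cases, with none higher (median -1.09). The lower count was 5 without terminal 1 or without terminal 2, and 4 with months of tamoxifen as a covariate. With the Xist-high arrays alone it was 2 (median -1.34). With only the groups compared 12 were lower and 2 higher. The median with wild type 1 alone was -1.90, but this rests on 1 array, which gives no spread of its own. Wild type 1 had the highest mean level of the list in its group, 8.82, against 7.96 to 8.32 in the other wild-type spleens. Ppbp, the platelet basic protein, had 7.97, 8.47 and 9.66 in terminal spleens, against 10.85 to 11.92 in wild type (6.06-fold lower), and was 3.35 below progression. Gp9, part of the von Willebrand receptor, was 2.68-fold lower. The Ppbp and Gp9 calls were lost with the Xist-high arrays alone. Of 17 mast cell, basophil and eosinophil genes 2 were higher, 5 were lower and 10 did not pass (median -0.49). Over all genes 18.1% were higher and 16.3% lower. The mast cell proteases Cma1 and Mcpt4 fell by 3.12 ± 0.47 and 3.52 ± 0.69, and wild-type levels ranged widely, 5.87 to 10.29 for Mcpt4. Fcer1a was lower too, but its call was lost without terminal 1 or without terminal 2. Siglecf rose, at 6.01 to 6.45 in terminal spleens, against 4.11 to 5.54 in wild type. Hdc, which makes histamine and is expressed by immature myeloid cells, rose 3.70-fold. Among stem and progenitor genes 6 of 21 were higher and 5 lower, beside 18.1% and 16.3% of all genes. Cd34 and Erg rose by 1.66 ± 0.27 and 1.79 ± 0.22, while Slamf1 fell by 2.12 ± 0.38 and Kit did not pass (0.59 ± 0.26).

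Of 24 endothelial genes 14 were lower in terminal spleens, with none higher (median -1.24). Of 37 stromal genes 15 were lower, 2 were higher and 20 did not pass (median -0.26, and -0.14 without terminal 3). Igfbp7, secreted by vessel walls, had 6.32, 6.21 and 5.37 in terminal spleens, against 10.90, 10.70, 10.03, 10.70 and 10.89 in wild-type spleens (25.6-fold lower, -4.68 ± 0.63, limma adjusted p = 6.5e-05). Over the mean of its probe sets the difference was -1.99, also called. Sparc, a matrix glycoprotein, was at 5.31 to 5.84 in terminal spleens, against 8.88 to 10.02 in wild type (16.3-fold lower). Plvap, which forms the diaphragms of vessel pores, had 6.24, 5.09 and 6.34 in terminal spleens, against 9.59, 9.22, 8.10, 9.72 and 9.69 in wild-type spleens (10.4-fold lower). The basement membrane collagen Col4a1 fell by 2.76 ± 0.41 and the junction protein Cldn5 by 2.65 ± 0.54. Ackr3, a scavenger receptor for Cxcl12, fell by 4.40 ± 0.66, and Coch by 4.49 ± 0.64. Gsn, gelsolin, rose by 1.67 ± 0.16.

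The endothelial mean level was 5.80, 5.67 and 5.82 in terminal spleens, against 6.45 in wild type 3 and 6.91 to 7.34 in the other wild-type spleens. Early 3 stood at 5.71, among the terminal values, while early 1 and 2 were at 7.22 and 7.29. Igfbp7 was likewise at 6.69 in early 3, against 10.50 and 9.78 in early 1 and 2. How much non-blood tissue entered each sample was not measured, so its part in these results was not tested. Without wild type 3, 16 of the 24 endothelial genes were lower. Tspan8 was lower by 3.79 ± 0.82, at 2.99, 7.44 and 8.36 in terminal spleens and 9.75 to 10.32 in wild type. Its difference was -2.16 without terminal 1 and -1.79 over the mean of its probe sets.

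Of 38 mitosis genes 11 were higher, 5 were lower and 22 did not pass (median 0.06), and of 37 replication genes 10 were higher, 3 lower and 24 not passed (median 0.11). Their share of called genes was 16 of 38 and 13 of 37, beside 34.5% of all genes. Bub1b and Ttk, kinases of the spindle checkpoint, rose by 1.01 ± 0.16 and 0.93 ± 0.13, and Plk1 by 0.83 ± 0.17. The lower count of the mitosis list was 1 with months of tamoxifen as a covariate (10 higher, median 0.27) and 1 with the Xist-high arrays alone (13 higher, median 0.29). In replication, Cdc45 and Rfc5 rose by 1.14 ± 0.17 and 0.86 ± 0.10.

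Other division genes fell. Mki67, the standard proliferation marker, had 12.49, 12.38 and 12.60 in terminal spleens, against 12.91, 13.02, 12.98, 13.05 and 12.78 in wild-type spleens (-0.45 ± 0.14, limma adjusted p = 0.018). All 3 terminal arrays lay below all 5 wild-type arrays, and the call was lost when terminal 1 or terminal 2 was left out, under the replicate block, with Xist level or months of tamoxifen as a covariate, and with the Xist-high arrays or wild type 1 alone (differences of -0.35 to -0.51 over all alternatives). Ube2c, a partner of the anaphase-promoting complex, fell by 0.67 ± 0.10, and Rrm2, which makes deoxynucleotides, by 0.59 ± 0.15. The Rrm2 call was lost under the replicate block, with months, and with the Xist-high arrays or wild type 1 alone. Against progression 5 mitosis genes were lower, Mki67, Ube2c, Nusap1, Cenpf and Birc5, and none was higher by limma (14 and 1 at an unadjusted p under 0.05). Against early spleens 5 were lower, or 0 with months of tamoxifen as a covariate, and none was higher. Over all genes 3.3% and 3.88% were lower than in progression and early spleens. Against wild type 17 of the 38 were higher in progression and 17 in early spleens, with 0 lower in either (9.29% and 7.35% of all genes were higher). With months of tamoxifen as a covariate none of the 38 passed against progression (5 lower and 2 higher at an unadjusted p under 0.05), and with Xist level as a covariate 1 was lower.

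**Figure D5:**
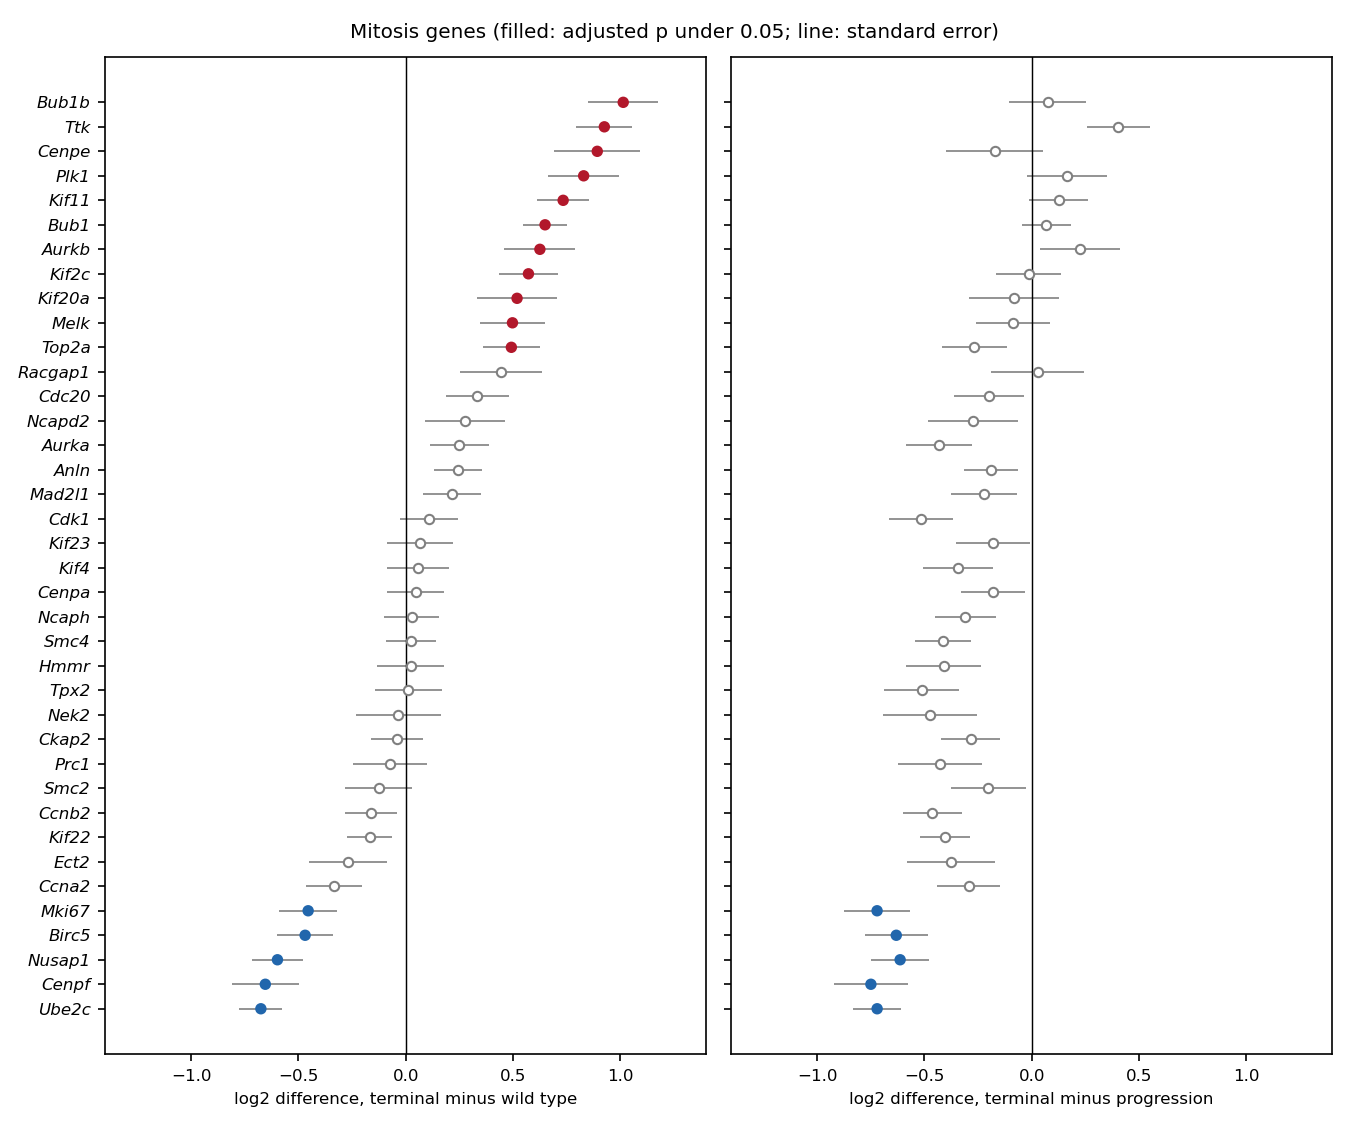
Log2 difference ± standard error of 38 mitosis genes, terminal minus wild type at the left and terminal minus progression at the right, with filled points where the adjusted p was under 0.05. At the left 11 genes are higher and 5 lower, and at the right 5 are lower and none higher.

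The labels describe the DNA damage response as low or absent at this stage. At the transcript level 8 of 32 of its genes were higher, 5 were lower and 19 did not pass (median 0.17). Their share of called genes was 13 of 32, beside 34.5% of all genes (18.1% higher and 16.3% lower). Cdc25a, a phosphatase that drives entry into S phase, had the largest rise of the list, 2.97-fold (1.57 ± 0.13). Cdc25b fell 4.96-fold (-2.31 ± 0.24) and was also 1.79 and 2.14 below progression and early spleens. Atm, the kinase that answers double-strand breaks, had 7.37, 7.17 and 7.78 in terminal spleens, against 8.58 to 8.95 in wild type (-1.28 ± 0.17). Trp53bp1 fell by 1.22 ± 0.23. Chek1, the kinase of stalled forks, was at 8.56, 8.76 and 8.79 in terminal spleens, against 7.93 to 8.48 in wild type (0.50 ± 0.13, limma adjusted p = 0.0099); over the mean of its probe sets the difference was 0.23 and did not pass. These are transcript levels and say nothing of kinase activity.

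Among 27 p53 targets 4 were higher and 9 lower (median -0.13), beside 18.1% and 16.3% of all genes. Cdkn1a, which encodes the cell cycle inhibitor p21, had 8.66, 8.57 and 8.70 in terminal spleens, against 7.88, 7.15, 7.05, 7.18 and 7.23 in wild-type spleens (1.34 ± 0.28, limma adjusted p = 0.0018). Its highest wild-type value was that of wild type 1, whose tamoxifen time was 24 months, and the call was lost with months of tamoxifen as a covariate (0.93), with the Xist-high arrays alone (1.09) and with wild type 1 alone (0.76). Xpc, a sensor of damaged bases, rose by 2.09 ± 0.26, Apaf1 by 1.37 ± 0.12 and Mdm2 by 0.59 ± 0.09. Sesn1 fell by 1.89 ± 0.18 and Gadd45a by 1.21 ± 0.23. Of 22 senescence and inhibitor genes 2 were higher and 8 lower, beside the same shares of all genes. Rb1, the retinoblastoma brake on S phase entry, fell 2.01-fold and was also lower than in progression (-0.60) and early spleens (-0.75). Cdkn2a, which encodes p16 and p19Arf, was at 6.83, 4.68 and 4.78 in terminal spleens, against 5.32 to 6.10 in wild type, and did not pass (-0.21 ± 0.45, limma adjusted p = 0.77). Cdkn1b fell by 1.33 ± 0.22 on its brightest probe set, while the mean of its probe sets differed by -0.11.

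Interferon-induced genes were lower in 12 of 30 cases and higher in 1, Oas2, with a median of -0.49. The lower count was 8 with months of tamoxifen as a covariate, 5 with the Xist-high arrays alone and 15 with array weights. The medians were then -0.53, -0.48 and -0.52. With wild type 1 alone, which gives no spread of its own, the median was -0.52. Isg20, an exonuclease that degrades viral RNA, had 10.01, 10.17 and 10.16 in terminal spleens, against 12.24, 12.45, 12.50, 12.49 and 12.32 in wild-type spleens (4.88-fold lower). Rsad2, the antiviral protein viperin, was 3.41-fold lower, and Ifit1 fell by 2.68 ± 0.40. These 3 were also lower than in progression spleens, by 2.16, 1.72 and 1.78. By limma 3 of the 30 were lower than in progression and 3 than in early spleens (3.3% and 3.88% of all genes were). Against progression the count was 2 with months, with the Xist level or without terminal 2, and 5 without progression 3. The list median against progression was -0.24, and 0.01 without progression 1. Against early spleens the median was 0.07. The interferon-gamma target Gbp2 was 3.51-fold lower than in wild type and differed by 0.04 from progression.

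Inflammatory genes were mixed, with 9 of 43 higher and 10 lower (median -0.21), beside 18.1% and 16.3% of all genes. Ccl9, a chemokine of myeloid cells, rose 6.24-fold, the adaptor Myd88 2.16-fold and Il1rap, the shared chain of interleukin-1 receptors, 2.50-fold. Relb, a subunit of NF-kappaB active in B and dendritic cells, fell 3.61-fold. Il6 was at 4.56, 3.95 and 4.30 in terminal spleens and at 6.13, 3.77, 4.47, 4.05 and 5.98 in wild-type spleens, and the groups overlapped (-0.61 ± 0.50, limma adjusted p = 0.39). Wild types 1 and 5 had the highest mean level of the list, 7.76 and 7.28, beside 6.76 to 6.89 in the other wild-type spleens and 6.89 to 7.23 in terminal spleens. Immediate early genes split into 6 higher and 5 lower of 26, again beside 18.1% and 16.3% of all genes. Klf4 rose by 1.89 ± 0.30, and Dusp2 and Egr2 fell by 1.72 ± 0.25 and 1.48 ± 0.27. Without terminal 2, 2 of the 26 were higher and 7 lower.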

How the data were processed

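Total RNA of spleen cells was labelled with biotin and hybridised to 1 array per sample. The deposited values are log2 levels per probe set, summarised by the authors with RMA (affy and limma are also named), per the submitters' processing notes. Their versions, settings, genome build and filters are not given in the sources used here. Marrow and spleen arrays appear to have been normalized apart, so only the 14 spleen arrays were used.

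Of 22690 probe sets 20393 carry 1 gene symbol in the platform annotation, 691 several and 1606 are not listed. A gene was its brightest probe set over the spleen arrays, which gave 12394 genes, with no filter on dim probe sets. The probe sets with no or several symbols had a fit of their own, in which 594 of 2297 passed (25.9%). All 14 arrays in 4 groups entered 1 model in limma 3.58.1 under R 4.3.3, with 10 residual degrees of freedom, moderated tests, and p-values adjusted by Benjamini-Hochberg over every gene (threshold 0.05). The median standard error was 0.15. Arrays give no read depth. Replicate numbers do not pair the samples. No 2 arrays were identical.

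The comparison, the gene lists (31, among them a sex-linked one that describes the arrays, in which 0 of 4 measured genes passed in limma and 1 was lower at an unadjusted p under 0.05) and the naming rule were chosen with earlier results of these data known. The rule took, in each direction, the 15 largest changes that passed and whose arrays did not overlap (no placeholder symbols, no antigen receptor segments), then from each list the 6 best p-values, and a fixed set (Hoxa9, Hoxa10, Meis1, Esr1, Kmt2a, Mllt1, Mki67, Cdkn1a, Cdkn2a, Chek1 and Il6). Other members in the text (such as S100a8, S100a9, Irf8, Marco, Ighm, Pax5, Cxcl13, Cxcr4, Tnfsf13b, Ltb, Klf1, Gata1, Epor, Slamf1, Kit, Nusap1, Cenpf, Birc5 and members that did not pass) were chosen after their values were seen. Lists are described by counts and medians and were not tested.

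Alternatives re-ran quantile normalization, centred each array on its median, kept only genes above the median level, averaged a gene's probe sets, used eBayes trend and robust, or weighted arrays. Others took the replicate number as block, or Xist level, Gapdh difference or tamoxifen months as covariate, kept only the groups compared, only Xist-high arrays or only wild type 1, or left out 1 array at a time. Leaving out the sex chromosomes was added after the data were seen. The fit was tested on simulated data. Promoters came from RefSeq, and figures were drawn with matplotlib 3.10.9.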

Additional observations from a re-analysis of the deposited data

Results flagged for a closer look

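In groups of 5 wild-type arrays, 30 list means and 40 genes were examined for an array far from the others, and 5 were found, where chance flags about 1 in 20 groups. Wild type 5 had the lowest erythroid mean level, 10.88, with the nearest array at 11.08. Wild type 3 had the highest adipocyte and muscle mean level, 5.86, with the nearest at 5.59, and it is also the array with high pancreas genes. The same array was lowest for Igfbp7, at 10.03 with the nearest at 10.70, and for Sparc, at 8.88 with the nearest at 9.73. Wild type 1, with 24 months of tamoxifen, was highest for Cdkn1a, at 7.88 with the nearest at 7.23.

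For 15 of these 40 genes, terminal spleens also differed from an earlier disease stage in the limma fit, where 5.86% of all genes were called against progression and 6.61% against early. The 40 genes were chosen mostly by their difference from wild type on the same terminal arrays, so this count shows nothing particular to them. Among B cell genes Cr2 differed by -2.97 from progression and -4.20 from early spleens, and Fcer2a by -1.52 and -2.02. Ccr6 differed by -1.82 from progression and -2.36 from early, and Ly6d by -1.59 and -2.12. Against early spleens a difference was also called for Ebf1 (-2.56), Cxcr5 (-2.21), Bach2 (-2.03), Ms4a1 (-2.23) and Dtx1 (-2.27).

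Among vessel and matrix genes Igfbp7 differed by -4.23 from progression and -3.03 from early, and Ackr3 by -3.57 and -2.81. Coch (-3.04) and Sparc (-3.20) were called against progression. Tspan8 was called against early (-3.80). Mki67 differed by -0.72 from progression and -0.76 from early.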

How the results depend on the processing

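Against wild type 4270 genes were called. The count was 2738 with months of tamoxifen as covariate, 2221 with Xist-high arrays alone and 890 with wild type 1 alone, and 3497 to 4246 with 1 array left out. The 726 genes called against progression became 1259 with array weights, 302 with the replicate block, 200 with the Xist level, 1095 with the Gapdh difference, 139 with months and 268 with only the groups compared, and 310 to 1911 with 1 array left out. They were 363 without terminal 2, 446 without terminal 3, 310 without progression 1, 427 without progression 2 and 1911 without progression 3. The 819 genes called against early became 3471 with array weights, 352 with the replicate block, 440 with the Xist level, 419 with the Gapdh difference, 182 with months and 251 with only the groups compared, and 314 to 2157 with 1 array left out. They were 515 without terminal 1, 452 without terminal 2, 374 without early 1, 314 without early 2 and 2157 without early 3.

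Of 30 list medians 28 kept 1 sign. The stem and progenitor median was -0.38 over genes above the median level, -0.016 with months and -0.022 with wild type 1 alone, and the senescence median was 0.0041 over genes above the median level; the cause was not tested. Of 187 named genes called, 91 lost the call with wild type 1 alone, 19 with Xist-high arrays alone and 14 with months, and none changed sign. With wild type 1 alone 18 of 34 erythroid, 14 of 25 B cell and 7 of 24 T cell genes were lower and 0 of 17 splenic macrophage and 0 of 24 endothelial genes passed downward (11 and 16 at an unadjusted limma p under 0.05); the medians of these 2 lists were then -1.36 and -1.56, and that of B cell genes -3.15, beside -1.32, -1.24 and -3.07 with all 5 wild-type arrays; this fit assumes that the lone array varies like the other groups. The erythroid count against progression was 16 with months, 19 with the Xist level and 21 to 28 otherwise, and against early it was 16 with months, 18 with only the groups compared and 23 to 32 otherwise; the medians with months were -1.42 and -1.47.

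Under the replicate block, 2948 genes were called against wild type. Same-numbered arrays did not deviate together (r of -0.04, -0.04 and 0.03), so the numbers do not pair the samples. Xist was high in 3 of 3 terminal, 0 of 3 progression, 1 of 3 early and 2 of 5 wild-type spleens. Between terminal and progression spleens neither tamoxifen time nor the sex that Xist marks can be told apart from stage. Against early spleens tamoxifen time cannot be told apart from stage, and sex cannot in full. Against wild type neither can be told apart from stage in full.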

Other observations

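Gene families defined by their symbols were chosen after the data were seen and counted at the transcript level. Of 71 mitochondrial ribosomal protein genes, which build the ribosomes that translate the mitochondrial genome, 41 were higher than in wild type, the others did not pass and the median difference was 0.33, beside 18.1% higher and a median of 0.04 over all genes. Mrpl33, the member with the smallest limma p-value, rose by 1.22 ± 0.12. Cytosolic ribosomal protein genes moved little, with 2 of 45 higher, 7 lower and a median of -0.10. Of 33 subunits of NADH dehydrogenase, the entry complex of the respiratory chain, 11 were higher and the others did not pass, with Ndufb7 at 0.76 ± 0.10. Proteasome subunits were higher in 14 of 38 cases and lower in 1, with Psmb5 at 0.56 ± 0.11.

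Guanylate binding proteins, interferon-gamma targets that attack intracellular microbes, were lower in 4 of 5 cases, with Gbp6 at -2.16 ± 0.25. Among 157 zinc finger genes 36 were lower and 13 higher, beside 16.3% and 18.1% of all genes, and Zfp318, needed for IgD expression in B cells, fell by 2.10 ± 0.21. Of 48 nucleolar and ribosome assembly genes 15 were higher and 8 lower, beside 18.1% and 16.3% of all genes.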
